A study of Mus musculus with 43 samples.

Results

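The genes described here encode the subunits of Polycomb repressive complex 1 (PRC1) and the enzymes that remove its histone mark. The set was a fixed list of 32 gene symbols, covering canonical and variant PRC1 subunits and deubiquitinase genes, and each symbol matched 1 of the 22462 genes in the authors' deposited table. Of the 32, 30 had passed the authors' filter for testing. The study used E14 cells (ES-E14TG2a), a mouse embryonic stem cell line grown with LIF and serum on gelatin. Control cells were compared with cells labelled MTF2 KO, in which MTF2, a Polycomb-like subunit of the PRC2 complex, was targeted. Both groups carry the E14 background and differ in the labels by genotype only, and the labels do not say how many knockout clones were used. RNA-seq was done on 3 libraries per genotype from poly-A RNA, and the 36 ChIP-seq samples, which also covered cells given back wild-type or K339A MTF2, were not analysed here.

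PRC1 is a ubiquitin ligase. Its RING1 or RNF2 subunit, paired with a PCGF protein, puts ubiquitin on histone H2A. In canonical PRC1 the pair binds a CBX protein, which reads the H3K27me3 mark made by PRC2, and a PHC protein, which can polymerise. In variant PRC1 the place of CBX is taken by RYBP or YAF2, and the PCGF protein decides which further partners join. BAP1, with an ASXL cofactor, takes the ubiquitin off again. In embryonic stem cells these complexes keep developmental genes with CpG island promoters repressed.

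Every level below is an FPKM value (fragments scaled to transcript length and library size) that the authors pooled over the libraries of a genotype. There is 1 value per gene and genotype, so no SD or n can be given, the depth per library is unknown, and whether a value differs beyond the spread between libraries rests on the authors' Cuffdiff test. A gene is called where that test's q, the p adjusted over all 11362 tested genes, is at or under 0.05. The log2 ratio is knockout over control after adding 0.5 FPKM to both. The 95% intervals were computed from the deposited p for the authors' log2 ratio without that addition, and are not adjusted for the number of genes.

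In whole cultures, fewer cells of a type and less RNA per cell cannot be told apart. The targeted gene, Mtf2, stood at 74.3 FPKM (control) and 44.7 FPKM (knockout) (q = 0.0496, authors' deposited table), so transcripts were at 60.2% of control and the table does not say which exons remained. When p was recomputed from Cuffdiff's test statistic by the normal distribution, the q of Mtf2 was 0.75. The 10 stem cell markers examined summed to 5444 FPKM (control) and 5390 FPKM (knockout). Among these Tfcp2l1 was called higher (34 and 60.8 FPKM), and Zfp42 stood at 725 and 492 FPKM without a call. The 16 primitive endoderm markers summed to 354 and 1788 FPKM, with 12 of them called higher, and the 8 trophectoderm markers to 24.9 and 178 FPKM. Most of that second sum came from the keratin genes Krt18 (9.55 and 117 FPKM) and Krt8 (6.11 and 52.9 FPKM), which were called higher, while Eomes stood at 6.07 and 3.9 FPKM and the others were under 2 FPKM. Of 8 fibroblast markers, 2 were tested, 3 were listed at 0 in both groups, and the list summed to 44.2 and 31.0 FPKM. Fbln1 was called lower (38.9 and 18.5 FPKM), while Thy1 stood at 5.14 and 11.4 FPKM without a call. Of 6 neural markers 4 were tested and 0 were called, and the list summed to 154 and 121 FPKM. Most of that sum came from Tubb3 (145 and 110 FPKM), while Sox1 stood at 2.66 and 5.31 FPKM. Of the 4 tested, 1 had a log2 ratio above 0 and 3 below. The part of these other cell type markers in the values below was not tested.

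The promoters of these genes are shown first, because the series asks how Polycomb-like proteins tie PRC2 to CpG islands and because KDM2B, a member, itself binds unmethylated CG. RefSeq windows on GRCm38.p6, running from 250 bases before to 50 bases after a gene's start, matched 27 of the 32 members by symbol. Where a gene had several starts, the one nearest the end of its deposited locus was taken. The letters CG, which read the same on both strands and cannot overlap themselves, were found in all 27 windows, with 5 to 63 per window and a median of 23. A CG is also present in 99.7% of the windows of 8735 tested genes and in 95% of all 16288 windows matched. Windows with an observed over expected CG ratio above 0.6 and a GC content above 50% numbered 22 of 27 members (81.5%), against 73.1% of tested genes and 47.6% of all genes. The members are thus like other tested genes in CG content. The 5 outside that definition were Bcorl1, Pcgf2, Pcgf5, Phc1 and Scml2. Bcorl1 missed it narrowly, at a ratio of 0.59, and its 250 upstream bases alone had a ratio of 0.62. The windows with the most CG belonged to Usp7 (63), Scmh1 (54) and Bap1 (50), and those with the fewest to Pcgf5 (5), Phc1 (9) and Pcgf2 (10). The start taken for Usp7 lay 53966 bases from the end of its deposited locus, that of Scml2 45557 bases and that of Pcgf2 849 bases. Another RefSeq start of Scmh1 has a window with 0 CG.

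The 5 upstream stretches of 250 bases below let the extremes and the paralogue pairs be compared, with each CG in capitals. Bcorl1 is the member that was called, and Bcor is its paralogue on the same chromosome (Bcorl1 at chrX:48341108-48341357, plus strand, and Bcor at chrX:12160356-12160605, minus strand). Rnf2 and Ring1 are the paired ligase genes (Rnf2 at chr1:151500992-151501241, minus strand, and Ring1 at chr17:34024681-34024930, minus strand). Pcgf5 is the member with the fewest CG at the start taken (chr19:36378817-36379066, plus strand).
Bcorl1: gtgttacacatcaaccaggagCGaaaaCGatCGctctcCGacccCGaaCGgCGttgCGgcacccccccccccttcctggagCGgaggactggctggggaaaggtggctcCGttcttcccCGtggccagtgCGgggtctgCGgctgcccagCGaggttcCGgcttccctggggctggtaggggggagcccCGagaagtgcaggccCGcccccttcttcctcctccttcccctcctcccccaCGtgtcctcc
Bcor: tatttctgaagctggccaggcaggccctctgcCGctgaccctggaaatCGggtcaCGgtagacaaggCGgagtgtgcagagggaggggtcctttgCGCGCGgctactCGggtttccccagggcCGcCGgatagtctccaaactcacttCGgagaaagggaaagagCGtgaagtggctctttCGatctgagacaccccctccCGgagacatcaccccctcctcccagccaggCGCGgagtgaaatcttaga
Rnf2: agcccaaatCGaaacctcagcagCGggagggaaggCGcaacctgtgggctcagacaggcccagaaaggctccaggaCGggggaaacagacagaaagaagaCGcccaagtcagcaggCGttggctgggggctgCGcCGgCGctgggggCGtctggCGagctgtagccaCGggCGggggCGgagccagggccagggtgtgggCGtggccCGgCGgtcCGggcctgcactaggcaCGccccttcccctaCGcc
Ring1: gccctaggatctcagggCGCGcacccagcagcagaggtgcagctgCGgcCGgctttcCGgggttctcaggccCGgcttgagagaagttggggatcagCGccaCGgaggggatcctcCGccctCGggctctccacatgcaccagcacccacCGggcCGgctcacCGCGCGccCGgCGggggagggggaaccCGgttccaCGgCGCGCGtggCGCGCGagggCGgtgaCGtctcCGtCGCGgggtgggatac
Pcgf5: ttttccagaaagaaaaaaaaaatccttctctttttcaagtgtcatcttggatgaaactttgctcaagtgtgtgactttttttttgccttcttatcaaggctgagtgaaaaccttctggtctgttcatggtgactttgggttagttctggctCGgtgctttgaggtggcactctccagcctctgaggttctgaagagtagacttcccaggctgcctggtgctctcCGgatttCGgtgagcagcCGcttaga
These stretches hold 18 CG for Bcorl1, 16 for Bcor, 20 for Rnf2, 30 for Ring1 and 4 for Pcgf5. Bcorl1 and Bcor thus had nearly the same number in these stretches. In their full windows the observed over expected ratio was 0.59 for Bcorl1 and 0.76 for Bcor. Whether CG content bears on the call of Bcorl1 was not tested. The low count of Pcgf5 holds only for the start at its deposited locus: the windows of its 2 other RefSeq starts hold 34 and 35 CG.

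Of the 30 tested members, 1 was called lower, 0 higher and 29 were not called by the authors' Cuffdiff test. Among all tested genes 12.9% were called, 6.03% lower and 6.9% higher. The median log2 ratio of the tested members was -0.0030, with an interquartile range of -0.21 to 0.29, beside -0.0035 and -0.40 to 0.47 over all tested genes. Members lay within 0.3 of 0 in 16 of 30 cases (53.3%), against 37.1% of all tested genes. At an unadjusted p under 0.05 there were 5 members, Bcorl1, Pcgf2, Rnf2, Asxl1 and Pcgf5, beside 25.7% of all tested genes, and 3 of the 5 were lower and 2 higher. By the authors' log2 ratio, without 0.5 FPKM added, 3 of 30 were at least 2-fold apart, called or not: Bcorl1, Pcgf5 and Cbx8. The share over all tested genes by that ratio was 20.2%. With 0.5 FPKM added, Bcorl1 (-0.94) and Cbx8 (0.92) fell short of 2-fold. The counts called, at an unadjusted p under 0.05 and at least 2-fold apart are each a smaller share than in the table as a whole. With 30 tested members these are small counts, and their difference from those shares was not tested.

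**Figure D1:**
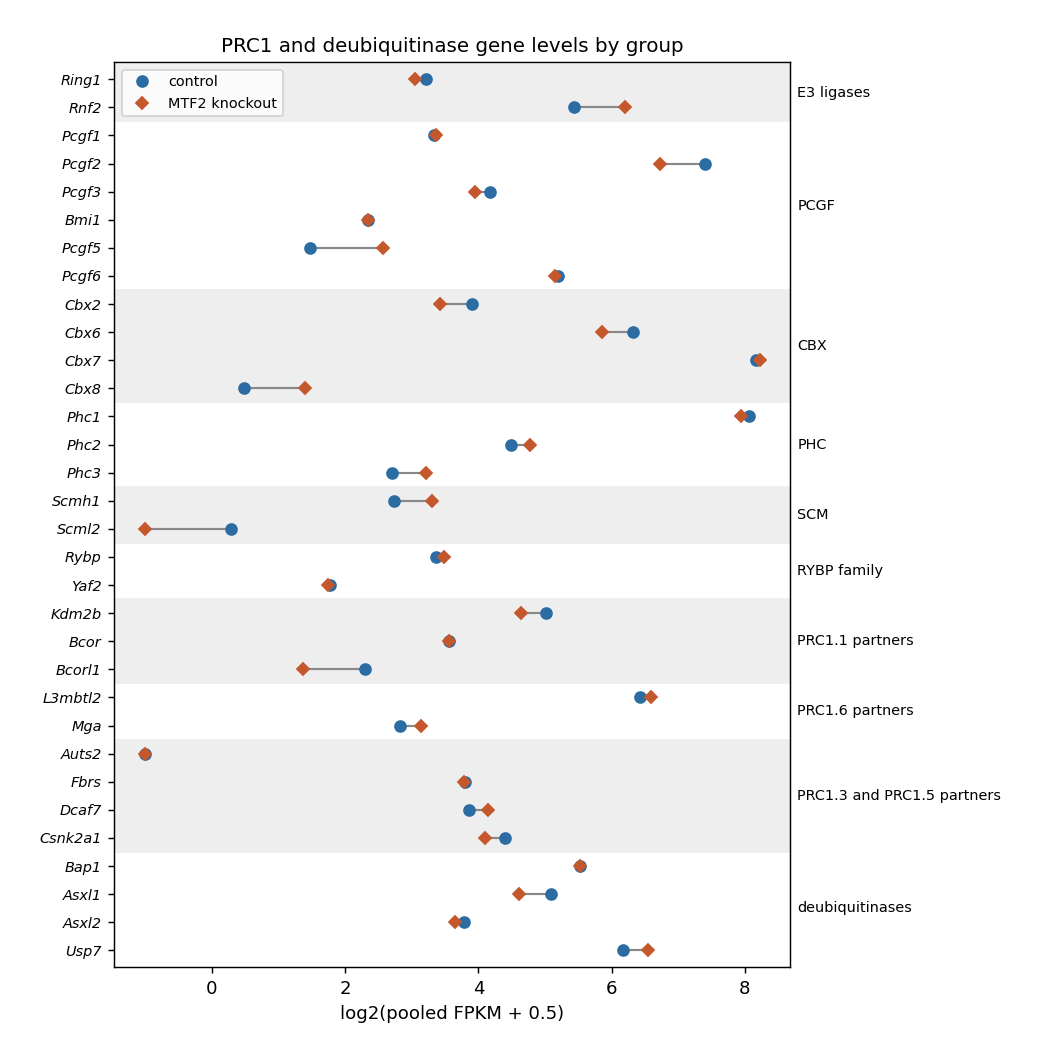
Pooled level of each of the 32 genes on a log2(FPKM + 0.5) axis, with circles for control and diamonds for MTF2 knockout cells, grouped by role. Levels run from Auts2, listed at 0 in both, to Cbx7 at 285 and 298 FPKM, and the paralogue that leads each group in control cells also leads it in knockout cells, apart from Csnk2a1 and Dcaf7.

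The catalytic pair was uneven in level. Rnf2 (RING1B; chromosome 1, 151469405 to 151500955, mm10), the main H2A ligase of these cells, stood at 42.8 FPKM (control) and 73.2 FPKM (knockout). Ring1 (RING1A; chromosome 17, 34020792 to 34024680) stood at 8.78 and 7.80 FPKM. Rnf2 was thus 4.87-fold above its paralogue in control and 9.38-fold above it in knockout cells, and its share of the pair's summed FPKM was 83% and 90.4%. The log2 ratio of Rnf2 was 0.77, with an interval of 0.13 to 1.42, but its q was 0.0998 in the authors' deposited table and it was not called. The log2 ratio of Ring1 was -0.16, with an interval of -0.89 to 0.54. Neither ligase gene passed the test, and the intervals of both overlap.

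The PCGF genes name the 6 kinds of PRC1, since each complex holds 1 PCGF protein. Pcgf2 (MEL18; chromosome 11, 97688823 to 97700497), the PCGF gene with the highest level in both groups, stood at 169 FPKM (control) and 105 FPKM (knockout). Its log2 ratio of -0.68 had an interval of -1.24 to -0.12 and a q of 0.0977 in the authors' deposited table, so it was not called. Bmi1, the other canonical PCGF gene and a regulator of self-renewal in adult stem cells, stood at 4.59 and 4.57 FPKM, which placed Pcgf2 36.8-fold above it in control and 23.1-fold above it in knockout cells. The canonical pair summed to 174 FPKM (control) and 110 FPKM (knockout), 63.4% of control. The 4 variant genes together stood at 65.8 and 65.2 FPKM, 99.1% of control. The share of the canonical pair in all PCGF FPKM was accordingly 72.5% and 62.8%, a difference that comes from Pcgf2 and carries its error.

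Among the variant PCGF genes, levels were spread widely. Pcgf6, whose complex silences germline genes, stood at 36.3 and 35.0 FPKM, with an interval of -0.53 to 0.42 around its log2 ratio. Pcgf3 stood at 17.6 and 14.9 FPKM, and Pcgf1, the partner of KDM2B, at 9.55 and 9.82 FPKM. None of these was called, and the interval of Pcgf1, -0.97 to 1.05, spans close to 2-fold either way. Pcgf5 (chromosome 19, 36379067 to 36456192), the close paralogue of Pcgf3, stood at 2.27 FPKM (control) and 5.43 FPKM (knockout). Its log2 ratio was 1.1 and its interval 0.08 to 2.44, with a q of 0.159 in the authors' deposited table. Pcgf3 was 7.77-fold above Pcgf5 in control and 2.75-fold above it in knockout cells, while their sum was 19.9 and 20.4 FPKM. The deposited locus of Pcgf5 covers 68.5% of the length of the RefSeq gene, so its level and these comparisons describe that locus entry. The PCGF group as a whole had 0 of 6 members called, and its median log2 ratio was -0.03.

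**Figure D2:**
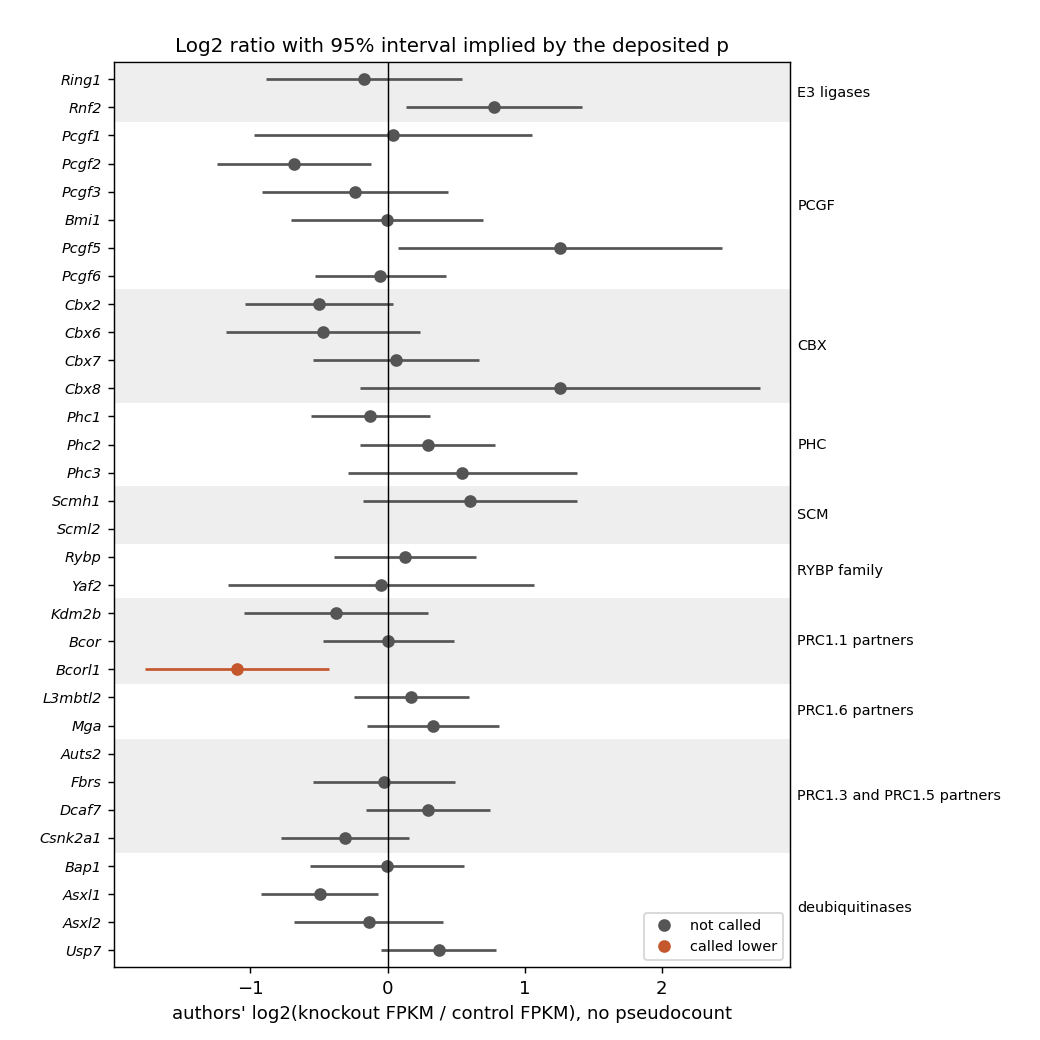
The authors' log2 ratio of knockout to control FPKM for the 30 tested genes, with points for the ratio and bars for the 95% interval implied by the deposited p; Scml2 and Auts2 were not tested and have no point. Bcorl1 is the called gene, and the bars of Rnf2, Pcgf2, Pcgf5 and Asxl1 also leave out 0 before adjustment over all genes.

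The CBX genes encode the chromodomain proteins that read H3K27me3. Cbx7 (chromosome 15, 79915807 to 79932652), known as the CBX gene of undifferentiated embryonic stem cells, had the highest level of all 32 members, 285 FPKM (control) and 298 FPKM (knockout), with a log2 ratio of 0.06 and an interval of -0.54 to 0.67. It made up 75% and 81% of the group's summed FPKM. The deposited locus of Cbx7 covers 30.4% of the length of the RefSeq gene, so its level and share describe that locus entry. Cbx6 followed at 79.6 and 57.4 FPKM (log2 ratio -0.47, interval -1.18 to 0.23). Its locus entry, on chromosome 15 from 79786352 to 79834688, is shared with Npcd and Nptxr, so reads of these genes may have been divided between them. The CBX genes linked with differentiation were lower in level. Cbx2, whose protein compacts chromatin, stood at 14.5 and 10.2 FPKM (log2 ratio -0.48, interval -1.04 to 0.04). Cbx8 stood at 0.896 FPKM (control) and 2.14 FPKM (knockout) (log2 ratio 0.92, interval -0.20 to 2.72), and its q was 0.283 in the authors' deposited table. No CBX gene was called, and the group sum was 380 and 368 FPKM. With both genotypes rescaled to the same total FPKM, that sum was 680 (control) and 729 (knockout), so its direction depended on the scaling.

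Cbx8 had the lowest control level among the members that the authors tested. Cbx2 and Cbx8 lie side by side on chromosome 11, at 119022962 to 119031270 and 119036305 to 119040969. Against its own control level, Cbx2 was lower in knockout cells and Cbx8 was higher, with neither called. Cbx2 stayed above Cbx8 in knockout cells, at 10.2 and 2.14 FPKM.

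The PHC genes encode the SAM domain subunits that join canonical complexes into larger bodies. Phc1 (chromosome 6, 122317731 to 122340561) stood at 268 FPKM (control) and 246 FPKM (knockout), the second highest level among the members. Its log2 ratio was -0.12, with an interval of -0.56 to 0.31. Phc2 stood at 21.9 and 26.9 FPKM (log2 ratio 0.29, interval -0.20 to 0.79) and Phc3 at 6.03 and 8.81 FPKM (log2 ratio 0.51, interval -0.29 to 1.38). Phc1 was 12.2-fold above Phc2 and 44.4-fold above Phc3 in control cells, and 9.14-fold and 27.9-fold above them in knockout cells. Its share of the group moved from 90.5% to 87.3%, and no PHC gene was called.

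The SCM genes encode relatives of Drosophila Scm, which carry MBT and SAM domains and bind PHC proteins. Scmh1 stood at 6.17 and 9.35 FPKM (log2 ratio 0.56, interval -0.18 to 1.38) and was not called. Scml2, known from the male germline, stood at 0.717 FPKM in control cells, was listed at 0 in knockout cells, and was not tested by the authors. No fold is given, since a listed 0 may be an estimate that failed.

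In the 5 groups whose shares are plotted, the leading gene took 43.7% to 90.5% of the summed FPKM in control cells. It was Rnf2, Pcgf2, Cbx7, Phc1 and Usp7 in both genotypes. FPKM is per length, so these shares compare transcripts, not proteins.

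**Figure D3:**
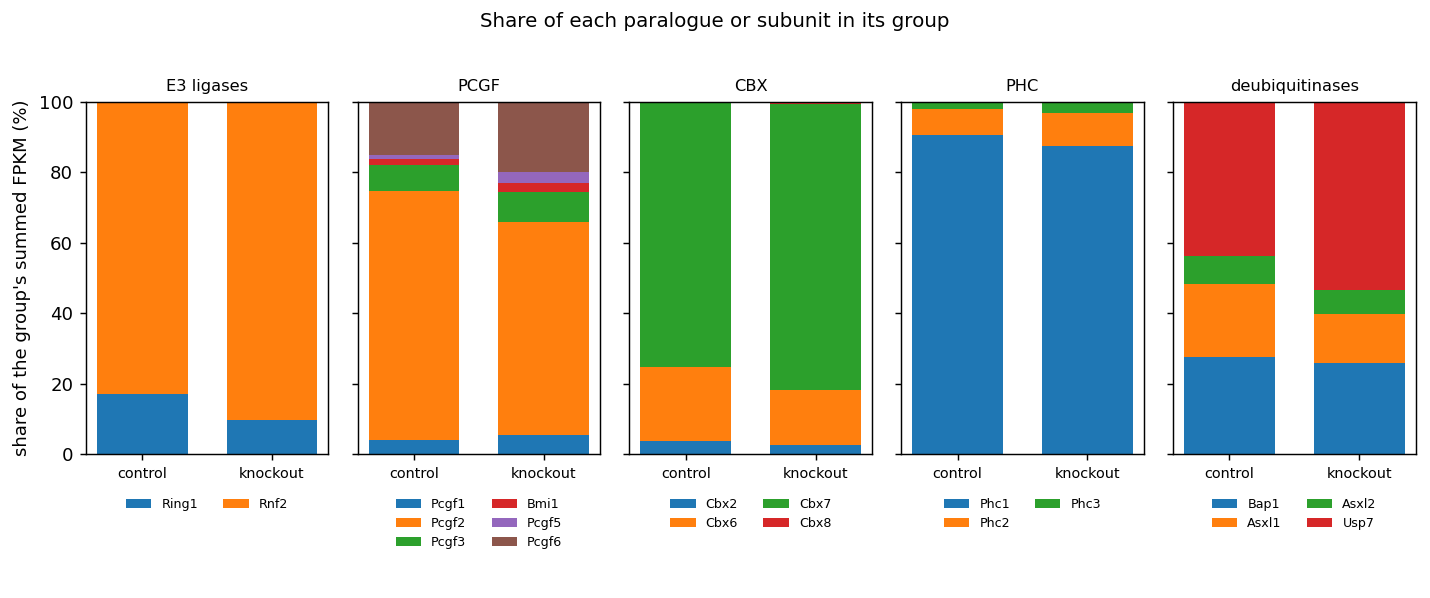
Share of each gene in the summed pooled FPKM of its group, in percent, for control and knockout cells, with 1 stacked bar per genotype. Pcgf2 went from 70.6% to 60.2% of the PCGF sum and Rnf2 from 83% to 90.4% of the ligase sum, with no error bars because 1 pooled value exists per genotype.

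RYBP and YAF2 define variant PRC1 and bind ubiquitinated H2A. Rybp stood at 9.77 and 10.7 FPKM (log2 ratio 0.12, interval -0.39 to 0.65) and Yaf2 at 2.94 and 2.84 FPKM (log2 ratio -0.04, interval -1.17 to 1.07). Rybp was 3.33-fold above Yaf2 in control and 3.75-fold above it in knockout cells. Neither was called.

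The partners of PCGF1 held the called gene. Bcorl1 (chromosome X, 48341358 to 48408049), which encodes a corepressor that pairs with PCGF1, fell from 4.45 FPKM in control to 2.08 FPKM in knockout cells, 46.8% of control. Its log2 ratio was -0.94 with 0.5 FPKM added and -1.1 without, the interval was -1.77 to -0.42, and q was 0.0167 in the authors' deposited table. Its paralogue Bcor (chromosome X, 12036740 to 12160355), which fills the same place in the complex, stood at 11.3 FPKM in both groups, with a log2 ratio of 0.01 and an interval of -0.47 to 0.48. Bcor was thus 2.54-fold above Bcorl1 in control and 5.45-fold above it in knockout cells. The difference between the changes of the paralogues was not tested, and their intervals overlap. Kdm2b, the CxxC domain protein that brings this complex to CpG islands, stood at 31.7 and 24.4 FPKM (log2 ratio -0.37, interval -1.04 to 0.29). Kdm2b shares its locus entry with Rnf34 and was not called.

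The call of Bcorl1 was lost at a q of 0.01, where 6.82% of tested genes were called, and again when p was recomputed from Cuffdiff's test statistic by the normal distribution (q = 0.656), by which 1.1% were called. The interval from that statistic was -2.24 to 0.05.

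The complex of PCGF6 contains L3MBTL2, a reader protein with MBT domains, and MGA, a DNA-binding scaffold that pairs with MAX. L3mbtl2 stood at 85.4 and 96.3 FPKM (log2 ratio 0.17, interval -0.25 to 0.59) and Mga at 6.57 and 8.27 FPKM (log2 ratio 0.31, interval -0.15 to 0.81). L3mbtl2 shares its locus entry with Chadl. Both members were above 0 and neither was called. Of 7 further subunits of this complex in the wider list given below, Hdac2 and Tfdp1 were called higher, beside 6.9% of all tested genes. The other 5 were named after their values were seen, so no reading is drawn from this count. None of the 5 was called: Wdr5 stood at 97 and 133 FPKM, Max at 261 and 191 FPKM, Cbx3 at 20.9 and 17.9 FPKM, Hdac1 at 17 and 13.7 FPKM and E2f6 at 13.5 and 9.35 FPKM.

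AUTS2 or its relative FBRS, with casein kinase 2 and the WD40 scaffold DCAF7, joins the PCGF3 and PCGF5 complexes. Fbrs stood at 13.5 and 13.2 FPKM (log2 ratio -0.02, interval -0.54 to 0.49), Dcaf7 at 14.1 and 17.3 FPKM (log2 ratio 0.29, interval -0.16 to 0.75) and Csnk2a1, a catalytic subunit of the kinase, at 20.7 and 16.6 FPKM (log2 ratio -0.30, interval -0.78 to 0.15). None was called. Auts2, best known as a neurodevelopmental gene, was listed at 0 in both groups and not tested. Its deposited locus, on chromosome 5 from 131437788 to 131616605, covers 16.2% of the length of the RefSeq gene, so that 0 describes only part of it.

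The deubiquitinase group also had no call. Bap1 (chromosome 14, 31251450 to 31259944), the enzyme that removes ubiquitin from H2A, stood at 45.4 FPKM in both groups, with a log2 ratio of -0.00043 and an interval of -0.56 to 0.56. Its cofactor genes Asxl1 and Asxl2 stood at 33.6 and 23.9 FPKM and at 13.2 and 12 FPKM. Asxl1 had a log2 ratio of -0.49 and an interval of -0.92 to -0.07, with a q of 0.117 in the authors' deposited table, and Asxl2 a log2 ratio of -0.13 and an interval of -0.68 to 0.41. The cofactor pair summed to 46.8 FPKM (control) and 35.9 FPKM (knockout). Usp7, a ubiquitin protease with many targets that also joins the PCGF1 complex, stood at 71.6 and 92.9 FPKM (log2 ratio 0.37, interval -0.04 to 0.79).

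A further list of PRC1 and H2AK119 pathway genes held 41 genes found in the table, of which 36 were tested. The authors' Cuffdiff test called 3 of these higher and 2 lower, leaving 31 uncalled, beside the same 12.9% of all tested genes. The median log2 ratio was -0.16. Of the 5 called genes, 3 encode E2 enzymes, which hand ubiquitin to RING ligases. Ube2d1 rose from 5.63 to 14.1 FPKM (q = 0.0382), whereas Ube2d2a fell from 12.8 to 5.28 FPKM (q = 0.0107) and Ube2d3 from 59.7 to 30.2 FPKM (q = 0.0379), all per the authors' deposited table. The calls of Ube2d1, Ube2d2a and Ube2d3 were lost at a q of 0.01. Another E2 gene, Ube2e1, stood at 118 and 123 FPKM and was not called. These E2 genes serve many ligases besides PRC1, and as close paralogues they can share reads.

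The other called genes were Hdac2, a histone deacetylase of the PCGF6 complex, which rose from 34.5 to 70.3 FPKM (q = 0.0022), and Tfdp1, the dimer partner of E2F6, which rose from 40.1 to 87.3 FPKM (q = 0.0012), by the q of the authors' deposited table. Among the largest uncalled ratios were those of Samd11, at 2.18 and 1.03 FPKM (log2 ratio -0.81), and Brcc3, at 5.94 and 10.6 FPKM (log2 ratio 0.78). The paralogues of members that were measured outside the list did not pass the test either. Csnk2a2 stood at 34.1 and 27.1 FPKM, Fbrsl1 at 20.1 and 17.2 FPKM, Kdm2a at 20.7 and 21.3 FPKM and L3mbtl3 at 1.12 and 1.67 FPKM. Asxl3 (0.104 and 0.11 FPKM), L3mbtl1 (1.23 and 0.386 FPKM), L3mbtl4 (0.0231 and 0.202 FPKM) and Scml4 (0.0261 and 0.0975 FPKM) were not tested. Of further deubiquitinase genes in that list, Usp16 stood at 8.84 and 6 FPKM and Usp21 at 17.7 and 10.4 FPKM. Usp3 stood at 4.14 and 4.32 FPKM and Mysm1 at 3.24 and 2.89 FPKM. None of these was called. Usp21 had a log2 ratio of -0.74 and a q of 0.0867 in the authors' deposited table.

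The 405 expressed genes of chromosome 14 had a median log2 ratio of 0.71, so each member was set beside the 25 expressed genes on each side of it. Near a chromosome end fewer were available, so Asxl2 had 27 neighbours in all and Scml2 had 43. The median log2 ratio of the neighbours ran from -0.33 around Ring1 to 0.28 around Rnf2. Around Rnf2, 29 of 50 neighbours were higher in knockout cells and 9 were called higher against 2 lower, while Rnf2 itself lay 0.49 above their median. The neighbours of Pcgf5 had a median of 0.25, and Pcgf5 lay 0.85 above it. Around Bcorl1 the median was 0.06, with 2 of 50 neighbours called higher and 4 lower, and Bcorl1 lay -1.0 from it. The median around Asxl1 was -0.02. Around Pcgf2 it was 0.0028, but -0.40 over 10 genes and -0.12 over 50 genes on each side, so it depended on the window. With 10 and 50 genes on each side it was 0.17 and 0.14 around Rnf2 and 0.29 and 0.03 around Pcgf5. Bap1 is the member on chromosome 14, but its own 50 neighbours had a median of -0.07 with 0 called higher and 3 lower. With 10 and 50 genes on each side the median around Bap1 was 0.0024 and 0.099. Around Ring1 it was -0.38 and -0.16, so both depended on the window. In all, 11 of 30 tested members lay outside the middle 50% of their neighbours' ratios. By definition about 50% of the neighbours lie outside it too, so no departure of the members is read from this count.

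**Figure D4:**
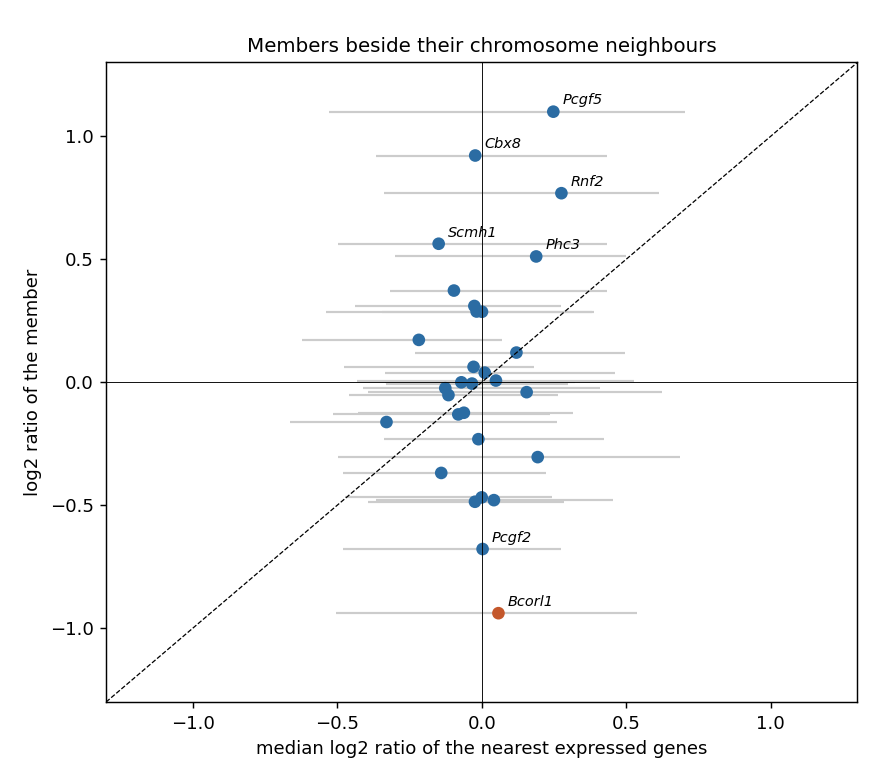
Log2 ratio of each of the 30 tested members (vertical) against the median log2 ratio of the 25 expressed genes on each side (horizontal), with grey bars for the interquartile range of those neighbours and a dashed line where both are equal; the called gene Bcorl1 is in orange. Members from -0.94 (Bcorl1) to 1.1 (Pcgf5) sit over neighbour medians between -0.33 and 0.28. Asxl2, near a chromosome end, had 27 neighbours in all.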

How the data were processed

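The members and the gene lists were chosen with earlier results of these data known. The submitters' processing notes name 2 builds, mm10 and mm9, and as tools Cuffdiff 2.2.1.3, TopHat2 2.1.0, Bowtie 1.0 and deepTools, without saying what each was used for. FPKM values were deposited by the authors as 1 pooled value per gene and genotype over 3 libraries each, per the file headers. The log2 fold change, the test statistic (a score), the p-value and the q-value were deposited by the authors per gene. The deposited q equals a Benjamini-Hochberg adjustment over the 11362 tested genes to within 5.2e-07. The other 11100 genes were not tested. Library depth is unknown.

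Ratios, medians, shares and neighbour medians were computed in Python 3.11.15 with pandas 2.3.3 and scipy 1.17.1, with a pseudocount of 0.5 FPKM. Expressed genes had an FPKM of 1 or more in either group. Interval widths came from the normal z of the deposited p, and whether those widths hold for these data was not tested. At the median over tested genes with a p between 1e-04 and 0.5, that z was 1.73 times the deposited statistic, so intervals from the statistic are wider. Locus starts were moved from 0-based to 1-based. All 32 members lay on the chromosome that RefSeq gives on GRCm38.p6, the reference of mm10. Named genes were all members, Mtf2, and, from the further list, the called genes, the 3 largest uncalled ratios and paralogues of members. An item that this rule names is not reported here. Max, E2f6, Wdr5, Cbx3, Hdac1, Ube2e1, Usp16, Usp21, Usp3, Mysm1, Krt8, Krt18, Eomes, Tfcp2l1, Zfp42, Fbln1, Thy1, Tubb3 and Sox1 were named after their values were seen. No replicate test could be made.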

Additional observations from a re-analysis of the deposited data

How the results depend on the processing

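The single lower call, Bcorl1, remained when p was adjusted over genes at 1 FPKM or more in both groups. It also remained when a 2-fold change in the authors' ratio, without 0.5 FPKM added, was required as well. The count was 0 at a q of 0.01, and 0 when p was recomputed from the test statistic by the normal distribution. No member was called higher under any of these. The median log2 ratio of the members was -0.0056 over members at 1 FPKM or more in both groups, and -0.0033 and -0.0028 with pseudocounts of 0.1 and 1. Centring on all tested genes moved that median to 0.00044 and turned the log2 ratio of Bap1 to 0.0030 and of no other tested member. With errors from the deposited statistic, 30 of 30 intervals included 0, against 25 of 30, and the median interval reached 0.95 either side in place of 0.56. Windows of 10 and 50 neighbours on each side moved 14 and 11 of 32 neighbour medians by 0.1 or more. Shares of FPKM do not depend on a common rescaling, but group sums do. Rescaled to the same total FPKM, the CBX sum became higher in knockout cells, and the PCGF sum stayed lower (428 and 347). No paired analysis was possible because the table holds 1 pooled value per genotype, and for the same reason no library could be left out. Depth is unknown, and intervals of members under 10 FPKM reached 1.46 either side.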
